A study of Mus musculus with 12 samples.

Results

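Fgf21 encodes a secreted hormone of the fibroblast growth factor (FGF) family, and Klb, Fgfr1, Fgfr2 and Fgfr3 encode parts of the receptor complexes through which FGF21 can act. These 5 genes, of 55401 in each library's count table, were followed in the subcutaneous white adipose tissue (scWAT, the fat under the skin) of 12 mice. They were chosen by the measured fold change of Fgf21, which was among the largest falls in the mutant at 8°C, and the receptor genes were added for their function. All 5 were matched by symbol to 1 Ensembl ID each and all 5 were among the 16540 genes with enough counts to be tested, although Fgf21 passed that limit only through the wild-type libraries at 8°C. The other 4 were well above it in all 12 libraries.

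The mice were female, 16 weeks old when treatment began, and carried either 2 unmodified alleles (Jmjd1a +/+, WT) or 2 alleles encoding JMJD1A with the H1122Y substitution (Jmjd1a HY/HY, HY), which removes the histone H3K9 demethylase activity. JMJD1A, encoded by the gene listed as Kdm3a, takes methyl groups off histone H3, a mark of silent chromatin. The substitution is in the germline of 1 knock-in line, so every cell type of the mouse carries it. All mice were caged singly, spent 1 week at 30°C, where little heat has to be made, and then 1 further week at 30°C or at 8°C, with 3 mice and 3 libraries in each of the 4 groups. RNA-seq counted read pairs per gene on the sense strand, in all between 18305586 and 26352081 for the libraries at 30°C and between 13592629 and 17955584 for those at 8°C. Kdm3a was at 35.7 to 61.7 CPM (the usual depth-scaled count unit, with libraries scaled by the TMM method) across the 12 libraries and was not called between the genotypes at 8°C (adjusted p = 0.604, edgeR) or at 30°C (adjusted p = 0.753), and its counts include both alleles alike. The 8 markers of adipocytes summed to between 22567 and 51082 CPM. One library, WT replicate 2 at 30°C, held 1206 summed CPM of 6 skeletal muscle markers, against 3.12 to 22.6 in the other 11. The 12 markers of mammary epithelium, a tissue that lies within this fat depot in females, summed to 3821 to 6027 CPM in WT at 30°C and to 977 to 2661 elsewhere, although the milk protein genes Wap and Csn2 were at 3 counts or fewer in every library.

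FGF21 is an endocrine FGF. It lacks the tight binding to heparan sulphate that keeps most FGFs near the cell that made them, and it needs β-klotho, the product of Klb, as a co-receptor beside an FGF receptor tyrosine kinase, of which FGFR1 is the main partner in fat. The liver is the best known source of the circulating hormone, and brown and beige adipocytes make it during cold exposure. Its transcription is known to be driven by PPARα, by ATF4 and, downstream of adrenergic signals, by ATF2 and PGC-1α.

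The 250 bases before the annotated start of Fgf21 and of Klb are given because these are the ligand whose level separated the genotypes in the cold and the co-receptor gene that was called. They are from RefSeq (GRCm38.p6, the build called mm10), read 5′ to 3′ on the strand of the gene. Fgf21 is on the minus strand, and its window is chr7:45615491-45615740. Klb is on the plus strand, with the window chr5:65348161-65348410. Capitals mark the matches to 7 motifs searched on both strands.
Fgf21: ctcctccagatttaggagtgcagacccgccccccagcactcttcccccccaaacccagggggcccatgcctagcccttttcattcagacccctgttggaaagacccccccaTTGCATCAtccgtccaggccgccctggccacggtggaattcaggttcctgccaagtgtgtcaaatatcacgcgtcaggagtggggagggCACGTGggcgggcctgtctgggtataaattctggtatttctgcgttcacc
Klb: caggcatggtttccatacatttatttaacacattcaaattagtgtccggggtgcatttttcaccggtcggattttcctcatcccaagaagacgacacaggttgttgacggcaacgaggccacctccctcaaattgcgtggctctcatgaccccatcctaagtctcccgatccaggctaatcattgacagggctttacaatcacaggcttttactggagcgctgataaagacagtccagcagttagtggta

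The Fgf21 window held 2 matches. The first, TTGCATCA on the given strand, is a match on the other strand to TGATGNAA, the composite element bound by ATF4 with its partners, and lies 139 to 132 bases before the start. It was found in 3.45% of the 32851 windows of the same length in the table. The second, 50 to 45 bases before the start, was CACGTG, an E-box of the kind bound by ChREBP and USF factors, which 6.02% of the windows held. The Klb window held none of the 7 motifs, which besides these were TGACGTCA (the cAMP response element, in 1.55% of windows), TCAAGGTCA (the ERR element, 0.387%), AGGTCA (the nuclear receptor core site, which is part of the ERR element and of the DR1 element, 14% of windows), CCAAT (33.8%) and the DR1 element of the PPAR receptors (0.0335%). The window of Fgfr2 held none either, and of the 2 starts listed for Fgfr3 the first had 1 CCAAT match, 188 to 184 bases before the start. These letters describe the windows and were not tested for binding.

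The ligand was scarce in every group but one. Fgf21 (ENSMUSG00000030827.5, chromosome 7 from 45613890 to 45615490, GRCm38.p6) had 14, 116 and 85 counts in WT replicates 1, 2 and 3 at 8°C, which is 1.04, 8.75 and 5.45 CPM. In HY at 8°C it had 2, 3 and 3 counts, or 0.129, 0.188 and 0.244 CPM. Every WT library at 8°C was thus above every HY library at that temperature, and within WT the highest was well above the lowest. In WT at 30°C it had 5, 1 and 5 counts, or 0.227, 0.0361 and 0.266 CPM. In HY at 30°C it had 6, 45 and 4 counts, or 0.232, 1.55 and 0.208 CPM, so that HY replicate 2 stood above the other 5 libraries at 30°C and above WT replicate 1 at 8°C. The exact 95% Poisson intervals, which cover counting error only, ran from 0.569 to 1.75 CPM in that WT library and from 1.13 to 2.07 CPM in HY replicate 2, and overlapped.

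The group means of Fgf21 were 5.08 ± 3.87 CPM in WT at 8°C (SD, n = 3), 0.663 ± 0.767 in HY at 30°C, 0.187 ± 0.057 in HY at 8°C and 0.176 ± 0.123 in WT at 30°C. The SD exceeded the mean in HY at 30°C, where 1 library set the level, and the HY libraries at 8°C lay within the range of the WT libraries at 30°C. A level of 3 counts corresponds to 0.188 to 0.244 CPM in the HY libraries at 8°C, so that none of the 3 was above it. On the opposite strand of Fgf21, 1 read pair was counted in each of WT replicates 1 and 2 at 30°C and 0 in the other 10 libraries.

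The fitted fold changes of Fgf21 are given as a description, with no test, for the contrast that chose it and for those that share its libraries. Between the genotypes at 8°C the log2 fold change of HY against WT was -4.74 ± 1.00 (SE). The pooled counts, 215 in WT and 8 in HY, gave a ratio of 27.8, which takes no account of the spread between mice. Without WT replicate 2 at 8°C, the library with most Fgf21, the log2 fold change was -4.11. In a ranking of genes by this fold change, which restates the choice of Fgf21 (genes averaging 10 counts or more at 8°C, adjusted p under 0.05), Cpne5, which encodes a copine, lay just before Fgf21 at -4.88, with 12 to 31 counts in WT and 0 to 1 in HY, and Greb1 just after it at -4.26. From 30°C to 8°C in WT the log2 fold change of Fgf21 was 4.89 ± 0.96, or 4.26 without WT replicate 2 at 8°C. The pooled counts of 11 and 215 gave a ratio of 31.7, with the same limit. In HY the log2 fold change was -1.88 ± 1.10, but without HY replicate 2 at 30°C it was -0.26. The genotype by temperature term, the cold response of HY minus that of WT, was -6.77 ± 1.43, and -5.15 without that library.

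The libraries at 30°C were not used to choose Fgf21, and there its difference between the genotypes could be tested. The log2 fold change of HY against WT was 2.03 ± 1.02 and was not called (adjusted p = 0.312, edgeR). It rested on HY replicate 2, without which it was 0.41 (adjusted p = 0.867). With 1 to 6 counts in 5 of these 6 libraries, and with the limit on low counts passed only through other libraries, the comparison at 30°C shows neither a difference nor its absence.

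**Figure D1:**
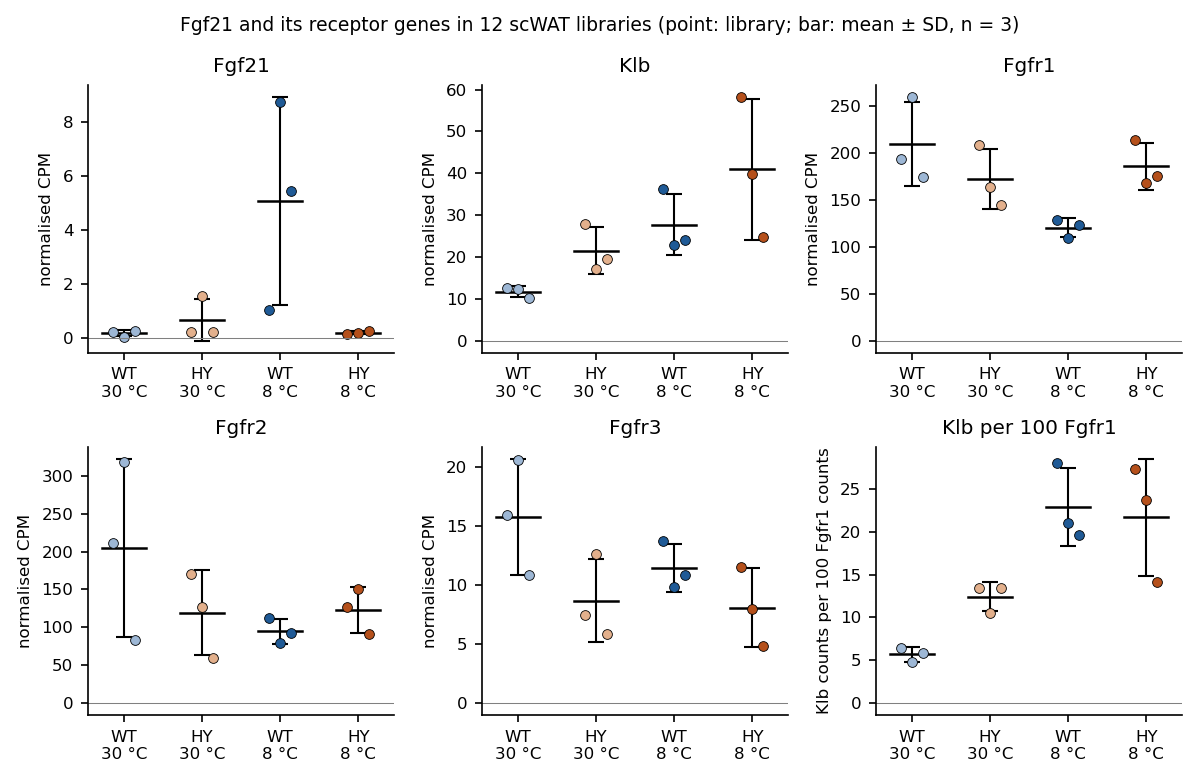
Normalised CPM of Fgf21, Klb, Fgfr1, Fgfr2 and Fgfr3, and Klb counts per 100 Fgfr1 counts, in the 12 scWAT libraries on linear axes. Each point is 1 library and the black lines give the mean ± SD of 3. Fgf21 was at 1.04 to 8.75 CPM in WT at 8°C and at 0.129 to 0.244 in HY at 8°C, whereas Klb was at 22.9 to 36.2 and 24.7 to 58.3 CPM in those groups.

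The co-receptor gene Klb (ENSMUSG00000029195.10, chromosome 5 from 65348411 to 65386957) rose by cold in WT, as the ligand did. Unlike the ligand, Klb did not have lower levels in HY than in WT at 8°C. It was at 12.6, 12.3 and 10.1 CPM in WT replicates 1, 2 and 3 at 30°C and at 36.2, 22.9 and 24.1 CPM at 8°C. All 3 libraries at 8°C were above all 3 at 30°C. The mean was 11.7 ± 1.36 CPM (SD, n = 3) at 30°C and 27.7 ± 7.36 at 8°C, a log2 fold change of 1.25 ± 0.29 (SE), 2.37-fold, which was called (adjusted p = 0.0108, edgeR). With Klb, 1 of the 4 receptor genes rose by cold in WT, where 10.3% of all genes tested did. The call held under all alternatives run, with adjusted p between 0.000274 and 0.0478.

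In HY, Klb was at 27.8, 17.2 and 19.4 CPM at 30°C and at 58.3, 39.8 and 24.7 CPM at 8°C. The means were 21.5 ± 5.57 and 40.9 ± 16.9 CPM, and HY replicate 3 at 8°C lay below HY replicate 1 at 30°C. The log2 fold change by cold was 0.93 ± 0.29 and was not called (adjusted p = 0.184, edgeR), in a comparison where 0.181% of all genes were called higher and 0.0665% lower and where the groups of 18.3% did not overlap. Klb was higher at 8°C in all 3 same-numbered pairs of HY libraries, although the labels state no pairing. With the replicate number as a block over the libraries of every group, it was just called (0.90, adjusted p = 0.0499, edgeR). Between the genotypes at 30°C all 3 HY libraries were above all 3 WT libraries, by 0.88 ± 0.29 on the log2 scale, as for 18.3% of genes in either direction, and the difference was not called (adjusted p = 0.144). It was called with the replicate number as a block (adjusted p = 0.0378, edgeR), although same-numbered mice did not all deviate together there. Between the genotypes at 8°C the difference was 0.56 ± 0.29 (adjusted p = 0.274) and the libraries overlapped. The genotype by temperature term was -0.31 ± 0.41 (adjusted p = 0.762). With that error, the cold responses of Klb in WT and HY were not shown to differ, nor to be alike.

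Fgfr1, the receptor kinase that pairs with β-klotho in fat, fell by cold in WT. Fgfr1 (ENSMUSG00000031565.18, chromosome 8 from 25518759 to 25575718) was at 194, 260 and 174 CPM in WT at 30°C and at 129, 109 and 123 CPM at 8°C, without overlap. The mean was 209 ± 45 CPM at 30°C and 120 ± 10.4 at 8°C, and the log2 fold change was -0.80 ± 0.18 (adjusted p = 0.00814, edgeR). It was the 1 of 4 receptor genes called lower, against 6.93% of all genes tested. Groups without overlap, as for Klb and Fgfr1, were found in 43.4% of all genes in this comparison. The call of Fgfr1 held under all alternatives run, with adjusted p between 0.000525 and 0.0423. Without WT replicate 2 at 30°C, the library with muscle markers and the highest Fgfr1, the log2 fold change was -0.61 (adjusted p = 0.0373). Scaling by library totals in place of TMM moves the median of all genes from -0.07 to -0.41 in this comparison. Fgfr1 was then at -1.15 and Klb at 0.91, so that both kept their direction relative to that median.

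In HY, Fgfr1 was at 208, 164 and 145 CPM at 30°C and at 214, 168 and 175 CPM at 8°C, and the groups overlapped. The log2 fold change by cold was 0.11 ± 0.18 (adjusted p = 0.816). At 8°C every HY library was above every WT library, with means of 185 ± 24.9 and 120 ± 10.4 CPM. The log2 difference of 0.62 ± 0.18 missed the threshold (adjusted p = 0.0564) and passed it with DESeq2 (adjusted p = 0.017), and also when only the 6 libraries at 8°C were fitted (adjusted p = 0.0093), or WT replicate 2 or 3 or HY replicate 1 or 3 at 30°C was left out (adjusted p between 0.0357 and 0.044). The difference also passed with no filter and with the replicate block. Its adjusted p stayed above the threshold without any 1 of the 6 libraries at 8°C. Groups without overlap were found in 35.4% of all genes at 8°C. The genotype by temperature term of Fgfr1 was 0.91 ± 0.25 (adjusted p = 0.0947, edgeR). It was 0.88 with DESeq2 (adjusted p = 0.0241) and 1.06 without HY replicate 1 at 30°C (adjusted p = 0.0362). At 30°C the difference between the genotypes was -0.28 ± 0.18 (adjusted p = 0.424). Counts per gene do not tell apart the receptor isoforms, of which β-klotho binds the c forms.

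Relative to its kinase partner, the co-receptor transcript was more abundant in WT at 8°C than at 30°C, since Klb rose and Fgfr1 fell. The number of Klb counts per 100 Fgfr1 counts, a ratio within each library that needs no scaling and that was devised after the values of both genes were seen, was 6.46, 4.75 and 5.81 in WT at 30°C and 28.1, 21 and 19.6 at 8°C. In HY it was 13.4, 10.5 and 13.4 at 30°C and 27.3, 23.7 and 14.1 at 8°C. The mean thus went from 5.67 ± 0.866 to 22.9 ± 4.53 in WT (SD, n = 3), 4.03-fold, and from 12.4 ± 1.67 to 21.7 ± 6.8 in HY, 1.74-fold, without overlap in either genotype. At 30°C the 3 HY libraries were also above the 3 WT libraries, and at 8°C the genotypes overlapped. Since the ratio was chosen for the way both genes moved, these values are a description with no test.

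Fgfr2 and Fgfr3 were not called by edgeR in any of the 5 comparisons. Fgfr2 (ENSMUSG00000030849.18, chromosome 7 from 130162451 to 130266808), whose product is prominent in epithelia, was at 212, 319 and 83.7 CPM in WT at 30°C and at 112, 78.8 and 92.6 CPM at 8°C. The lowest WT library at 30°C was below the highest at 8°C, and the log2 fold change of -1.11 ± 0.44 was not called (adjusted p = 0.0856, edgeR, and 0.0442 with DESeq2). It was -0.64 without WT replicate 2 at 30°C (adjusted p = 0.336), -1.49 without WT replicate 3 at 30°C (adjusted p = 0.0148) and -1.11 without HY replicate 3 at 30°C (adjusted p = 0.0484). In HY, Fgfr2 was at 171, 127 and 59.3 CPM at 30°C and at 127, 151 and 90.6 CPM at 8°C, a log2 fold change of 0.04 ± 0.44 (adjusted p = 0.978). HY and WT differed by -0.78 ± 0.44 at 30°C (adjusted p = 0.371) and by 0.38 ± 0.44 at 8°C (adjusted p = 0.669).

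Fgfr3 (ENSMUSG00000054252.18, chromosome 5 from 33721724 to 33737068), best known as a brake on bone growth, was at 15.9, 20.6 and 10.8 CPM in WT at 30°C and at 13.7, 9.81 and 10.8 CPM at 8°C. In HY it was at 7.48, 12.6 and 5.87 CPM at 30°C and at 11.5, 7.94 and 4.79 CPM at 8°C. The lowest levels were thus in HY replicate 3 of either temperature. The largest of its 4 pairwise differences was -0.86 ± 0.34 on the log2 scale, between HY and WT at 30°C, and was not called (adjusted p = 0.207). At 8°C the difference was -0.50 ± 0.35 (adjusted p = 0.444). The log2 fold change by cold was -0.46 ± 0.34 in WT (adjusted p = 0.344) and -0.10 ± 0.35 in HY (adjusted p = 0.922).

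Without the replicate block, edgeR called 0 of the 4 receptor genes by cold in HY, where 0.248% of all genes were called. It called 0 between the genotypes at 8°C, where 5.93% were, and 0 between the genotypes at 30°C, where 1.00% were. For the genotype by temperature term it called 0, where 2.24% were. At an unadjusted p under 0.05, edgeR gave 1, 1, 2 and 1 of the 4 in these comparisons, and DESeq2 called 0, 1, 0 and 1. With the block, Klb was called by cold in HY and between the genotypes at 30°C, and Fgfr1 between the genotypes at 8°C. Shares of all genes at the unadjusted threshold, with DESeq2 or under the block are not given, so these counts show no excess or lack.

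**Figure D2:**
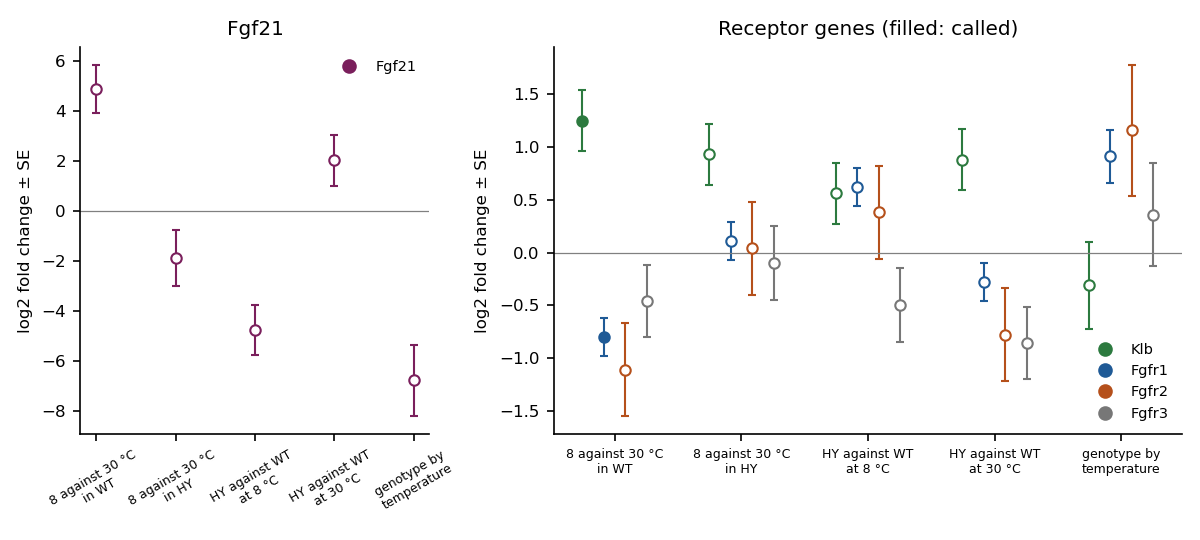
Log2 fold change ± SE of Fgf21 (left) and of the 4 receptor genes (right) in the 4 pairwise comparisons and the genotype by temperature term, from the edgeR model. Filled points were called, which were Klb at 1.25 and Fgfr1 at -0.80 by cold in WT. Fgf21 is described without a test except at 30°C.

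The summed level of the mammary epithelium markers moved with Fgfr2 and Fgfr3. Fgfr3 followed the summed level of the 12 markers with a Pearson r of 0.83 over the log2 values of the 12 libraries, and Fgfr2 with an r of 0.70, whereas r was 0.37 for Fgfr1, -0.55 for Klb and -0.05 for Fgf21. With the summed adipocyte markers r was -0.72 for Fgfr3 and -0.67 for Fgfr2. These values describe 12 libraries that share their scaling and are not a test. Of the 10 markers that could be tested, Epcam, Krt19 and Elf5 were called lower by cold in WT and Krt19 lower in HY at 30°C, against 6.93% and 0.441% of all genes. The first 3 calls were all lost without WT replicate 1 or 2 at 30°C or any 1 of the WT libraries at 8°C, and that at 30°C without WT replicate 1 or 2 at 30°C, any 1 of the WT libraries at 8°C or HY replicate 1 at 8°C (adjusted p up to 0.0834). The markers summed to 3821 to 6027 CPM in WT at 30°C, 2300 to 2661 in WT at 8°C, 977 to 2522 in HY at 30°C and 1391 to 2207 in HY at 8°C. The part of the epithelium in the levels of Fgfr2 and Fgfr3 was not tested. In tissue RNA, fewer cells of a type and less RNA per cell cannot be told apart.

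**Figure D3:**
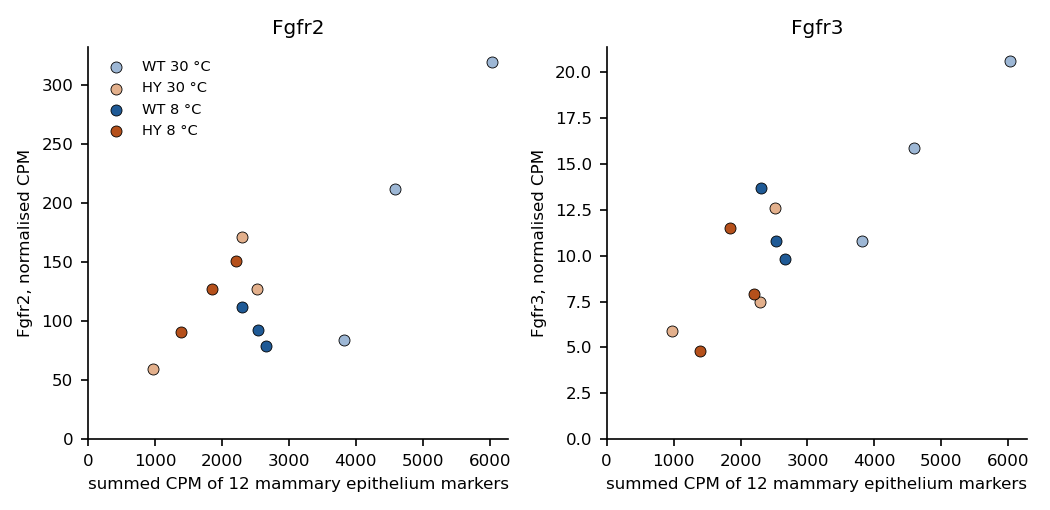
Normalised CPM of Fgfr2 (left) and Fgfr3 (right) against the summed CPM of 12 mammary epithelium markers, 1 point per library, coloured by group. The library with the highest marker sum, 6027 CPM, also had the highest Fgfr2, 319 CPM, and Fgfr3, 20.6 CPM.

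Beige adipocyte markers moved with Fgf21 and, in the opposite sense, with Fgfr1. The 8 markers, Ucp1, Cidea, Cpt1b, Elovl3, Cox7a1, Cox8b, Dio2 and Ppargc1a, summed to 8352 to 9271 CPM in WT at 8°C, 533 to 1680 in HY at 8°C and 65.5 to 242 in the 6 libraries at 30°C. All 8 were called higher by cold in WT, where 10.3% of all genes were, and 7 of 8, all but Dio2, lower in HY than in WT at 8°C, where 4.42% were. Cpt1b passed the limit on low counts only through the WT libraries at 8°C, so that its calls are no support, and without it the counts were 7 and 6 of 7. With Cpt1b, the first count was 8 without any 1 library, whereas the second was 3, 2 and 1 without WT replicate 1, 2 or 3 at 8°C and 2, 5 and 2 without HY replicate 1, 2 or 3 at 8°C. The shares of all genes in those fits are not given. Over the 12 libraries, Pearson's r of the log2 levels with this sum was 0.66 for Fgf21, 0.55 for Klb and -0.76 for Fgfr1. Other cell type markers moved about as closely. With the 6 endothelial markers r was 0.67 for Klb, 0.53 for Fgf21 and -0.69 for Fgfr1, and 4 of the 6 were called higher by cold in WT, against 10.3% of all genes. With the 6 macrophage markers r was 0.64 for Fgfr1, 0.37 for Klb and -0.61 for Fgf21, and they summed to 240 to 326 CPM in HY and 151 to 160 CPM in WT at 8°C. In the HY libraries at 8°C the 8 adipocyte progenitor markers summed to 1273 to 1724 CPM, against 834 to 982 in WT at 8°C. Of these markers, Dcn, Lum and Col15a1 were called higher in HY (1.15, 0.82 and 0.78 on the log2 scale), where 1.51% of all genes were. Uncalled were Pdgfra and Dpp4 at 0.85 and 0.34, and Pi16, Cd34 and Ly6a at -0.70, -0.52 and -0.11. The part of these cells in the level of any of the 5 genes was not tested.

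Set per kilobase of exon, the levels of the 5 genes could be compared with each other. The lengths were taken from another annotation release than that of the counts (930 bases for Fgf21, 3464 for Klb, 8061 for Fgfr1, 7796 for Fgfr2 and 6880 for Fgfr3), which limits these values. In WT at 30°C, Fgfr2 at 26.3 ± 15.1 and Fgfr1 at 26 ± 5.58 CPM per kb (SD, n = 3) overlapped, followed by Klb at 3.37 ± 0.393, Fgfr3 at 2.29 ± 0.711 and Fgf21 at 0.189 ± 0.132. Klb and Fgfr3 overlapped as well. In WT at 8°C, Fgfr1 was at 14.9 ± 1.29, Fgfr2 at 12.1 ± 2.16, Klb at 8 ± 2.13, Fgf21 at 5.46 ± 4.16 and Fgfr3 at 1.67 ± 0.297 CPM per kb, where each gene overlapped the next. In HY at 8°C, Fgfr1 was at 23 ± 3.08, Fgfr2 at 15.7 ± 3.87, Klb at 11.8 ± 4.87, Fgfr3 at 1.17 ± 0.485 and Fgf21 at 0.201 ± 0.0613 CPM per kb. Fgfr2 and Klb overlapped there. In HY at 30°C, Fgfr1 was at 21.3 ± 3.99, Fgfr2 at 15.3 ± 7.23, Klb at 6.2 ± 1.61, Fgfr3 at 1.26 ± 0.511 and Fgf21 at 0.713 ± 0.825 CPM per kb, with each gene overlapping the next except Klb and Fgfr3.

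Of the other receptors and klothos, Fgfr4, the main partner of β-klotho in liver, had 0 to 7 counts per library and Kl, the co-receptor for FGF23, 0 to 5. Both were too low to be tested. Fgfrl1, a receptor without a kinase domain, was at 118 to 227 CPM and Lctl, a klotho-like protein, at 10.5 to 52.1 CPM, and neither was called in any of the 5 comparisons by edgeR or DESeq2, or had an unadjusted p under 0.05. Fgf15 and Fgf23, the other endocrine FGFs, had at most 1 and 0 counts per library.

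Of the 17 other FGF ligands, 5 could be tested. Fgf9, a ligand of FGFR2 and FGFR3, was like Fgf21 highest in WT at 8°C. It was at 0.181, 0.0361 and 0.106 CPM in WT at 30°C and at 2.08, 1.36 and 2.25 CPM at 8°C, a log2 fold change of 4.12 ± 0.74. Like Fgf21, it passed the limit on low counts only through the WT libraries at 8°C, so that its calls are no support for a difference. In HY it was at 0.349, 0.172 and 0 CPM at 30°C and at 0.324, 0.625 and 0.0812 CPM at 8°C. The difference between the genotypes at 8°C, -2.39 ± 0.66, was called, with that limit, on pooled counts of 81 in WT and 16 in HY. This call was lost without any 1 library other than HY replicates 1 and 3 at 30°C (adjusted p up to 0.169). In the other direction, Fgf10 and Fgf7 were called higher in HY at 8°C. Fgf10, made by adipocyte precursors, was at 26.8, 31.4 and 41.8 CPM in WT and at 82.7, 64.1 and 66.6 CPM in HY at 8°C, 1.09 ± 0.26 higher on the log2 scale (adjusted p = 0.0253). Fgf7, like Fgf10 a ligand of the b form of FGFR2, was 1.22 ± 0.33 higher in HY at 8°C (adjusted p = 0.0473). The call of Fgf10 was lost without WT replicate 1 or 2 or HY replicate 1 or 3 at 8°C (adjusted p up to 0.102) and that of Fgf7 without any 1 of the WT libraries at 30°C, WT replicate 2 or 3 at 8°C or any 1 of the HY libraries at 8°C (adjusted p up to 0.176). Thus, besides Fgf9, 2 ligands were called in HY at 8°C, both higher, where 1.51% of all genes were. Fgf2 fell by cold in WT (-0.97 ± 0.30, adjusted p = 0.034, edgeR), a call lost without any 1 of the 6 WT libraries (adjusted p up to 0.118). Fgf1, the ligand at 10.2 to 28.9 CPM, was not called.

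Of 6 genes for FGF availability, 1 was called higher in HY than in WT at 8°C, where 1.51% of all genes were, and in the other 4 comparisons edgeR called 0 (1 to 3 had an unadjusted p under 0.05, and DESeq2 called 1 at 30°C and 0 in the rest). Fap, the protease that cleaves and inactivates FGF21 in its human form, was at 16.3, 10.6 and 10.7 CPM in WT and at 24.8, 20.5 and 22.8 CPM in HY at 8°C. It was 0.86 ± 0.21 higher on the log2 scale (adjusted p = 0.0291, edgeR), and the call was lost without WT replicate 2 or 3 or HY replicate 1 or 3 at 8°C (adjusted p up to 0.12). Fap is also a gene of fibroblasts.

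Of the 19 testable regulators of Fgf21 transcription, 5 were called higher by cold in WT, where 10.3% of all genes were, and 0 higher and 4 lower in HY than in WT at 8°C, where 1.51% and 4.42% were. The 4 lower in HY at 8°C were Ppara, Ppargc1a, Ppargc1b and Esrra, which were also among the 5 higher by cold in WT. Ppara, the nuclear receptor that drives Fgf21 in fasting liver, was at 10.3, 13.1 and 10.1 CPM in WT and at 2.07, 3.69 and 1.79 CPM in HY at 8°C, a log2 difference of -2.13 ± 0.46 (adjusted p = 0.0181, edgeR). Ppargc1b, which encodes the coactivator PGC-1β, was at 19.7, 19.2 and 21.6 CPM in WT and at 5.57, 7.63 and 4.63 CPM in HY at 8°C (-1.76 ± 0.27, adjusted p = 0.00331). Of these 4 genes, Ppargc1b kept its call in HY against WT at 8°C under all alternatives run.

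Ppargc1a, which encodes PGC-1α, was at 17.6, 35.9 and 25.7 CPM in WT and at 8.48, 14.6 and 8.44 CPM in HY at 8°C (-1.33 ± 0.34, adjusted p = 0.0346). Esrra, for the nuclear receptor ERRα, was at 133, 139 and 146 CPM in WT and at 68.3, 73.7 and 82.3 CPM in HY at 8°C (-0.90 ± 0.21, adjusted p = 0.0252). None of the HY libraries at 8°C reached the lowest WT library for any of the 4 genes. Groups without overlap were found in 35.4% of all genes in this comparison. The calls of Ppara and Ppargc1a at 8°C were lost without WT replicate 2 or 3 or HY replicate 1 or 3 (adjusted p up to 0.0867 and 0.148), and that of Esrra without any 1 of the 6 libraries at 8°C (up to 0.105). By cold in WT the log2 fold changes were 2.99 ± 0.48 for Ppara, 2.72 ± 0.35 for Ppargc1a, 1.52 ± 0.26 for Ppargc1b and 1.22 ± 0.21 for Esrra, and these 4 calls held under all alternatives run. The fifth regulator called higher by cold in WT was Thrb, for a thyroid hormone receptor, at 0.80 ± 0.22 (adjusted p = 0.0213), which lost its call without WT replicate 2 or 3 at either temperature (adjusted p up to 0.0676). Ppargc1a is also in the list of FGF21 responses and among the beige markers. The median log2 fold change of the 19 regulators was 0.16 by cold in WT, against -0.07 over all genes, and -0.13 in HY against WT at 8°C, against 0.01.

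Atf4, for the factor of the stress response that drives Fgf21, was at 164, 221 and 228 CPM in WT and at 148, 143 and 149 CPM in HY at 8°C and was not called (-0.48, adjusted p = 0.152). Of its 10 testable targets, 2 were higher and 2 lower by cold in WT, and 2 were higher and 1 lower in HY than in WT at 8°C, with 10.3%, 6.93%, 1.51% and 4.42% of all genes called in these directions. Atf5 was called higher by cold in WT (1.32 ± 0.30, adjusted p = 0.00816) and lower in HY at 8°C (-1.10 ± 0.29, adjusted p = 0.0439), at 328, 343 and 292 CPM in WT and 173, 149 and 128 CPM in HY. At 30°C it was at 137, 337 and 153 CPM in HY, with HY replicate 2, the library with 45 counts of Fgf21, above the rest. In contrast, Phgdh and Psat1, for enzymes of serine synthesis, were higher in HY than in WT at 8°C by 1.22 ± 0.31 (adjusted p = 0.0367) and 1.29 ± 0.28 (adjusted p = 0.0188). Phgdh fell by cold in WT (-1.39 ± 0.31, adjusted p = 0.00847) and Mthfd2, for a mitochondrial folate enzyme, rose (1.19 ± 0.30, adjusted p = 0.0159). Nupr1 was called lower by cold in WT (-0.77 ± 0.26, adjusted p = 0.0463) although its libraries overlapped, and lost the call without any 1 library other than WT replicates 1 and 3 and HY replicate 3 at 30°C (adjusted p up to 0.205). The call between the genotypes at 8°C was lost for Atf5 without any 1 of the libraries at 8°C or WT replicate 1 or 3 at 30°C (adjusted p up to 0.165). It was lost for Phgdh without WT replicate 1 at 30°C, WT replicate 1 or 2 or HY replicate 1 or 3 at 8°C (up to 0.151), and for Psat1 without WT replicate 1 or 2 or HY replicate 3 at 8°C (up to 0.0838). The call of Mthfd2 by cold in WT was lost without WT replicate 1 at 30°C or WT replicate 2 or 3 at 8°C (up to 0.0609).

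Downstream of the receptors, 2 of 17 genes of the FGF response and feedback list rose by cold in WT and 0 fell, a share near that of all genes, of which 10.3% rose. Dusp6, the phosphatase that removes activating phosphates from ERK, was at 21.4, 24.5 and 13.6 CPM in WT at 30°C and at 50.3, 46.8 and 58.4 CPM at 8°C (1.38 ± 0.21, adjusted p = 0.000789, edgeR). Spry4, a Sprouty inhibitor of the same pathway, was at 13, 8.37 and 8.98 CPM and at 17.5, 23.9 and 22.1 CPM (1.07 ± 0.20, adjusted p = 0.00341). Both held under all alternatives run. In HY, Dusp6 was at 27.1, 36.7 and 25.1 CPM at 30°C and at 36.5, 39.6 and 32.3 CPM at 8°C, and Spry4 at 12.3, 19.1 and 14.7 and at 15.9, 15.6 and 14.5 CPM. In HY at 8°C all libraries were below the lowest WT library for both genes, in a comparison where the groups of 35.4% of all genes did not overlap. Of the 17 genes, 0 were called between the genotypes there, where 5.93% of all genes were. At an unadjusted p under 0.05 edgeR gave 5, and DESeq2 called 1, counts for which the share of all genes is not given. Egr1, an immediate early gene at 16.4 to 92.4 CPM, had a log2 fold change of 1.41 by cold in WT that was not called (adjusted p = 0.0574). Many signals besides FGFs act on these genes.

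**Figure D4:**
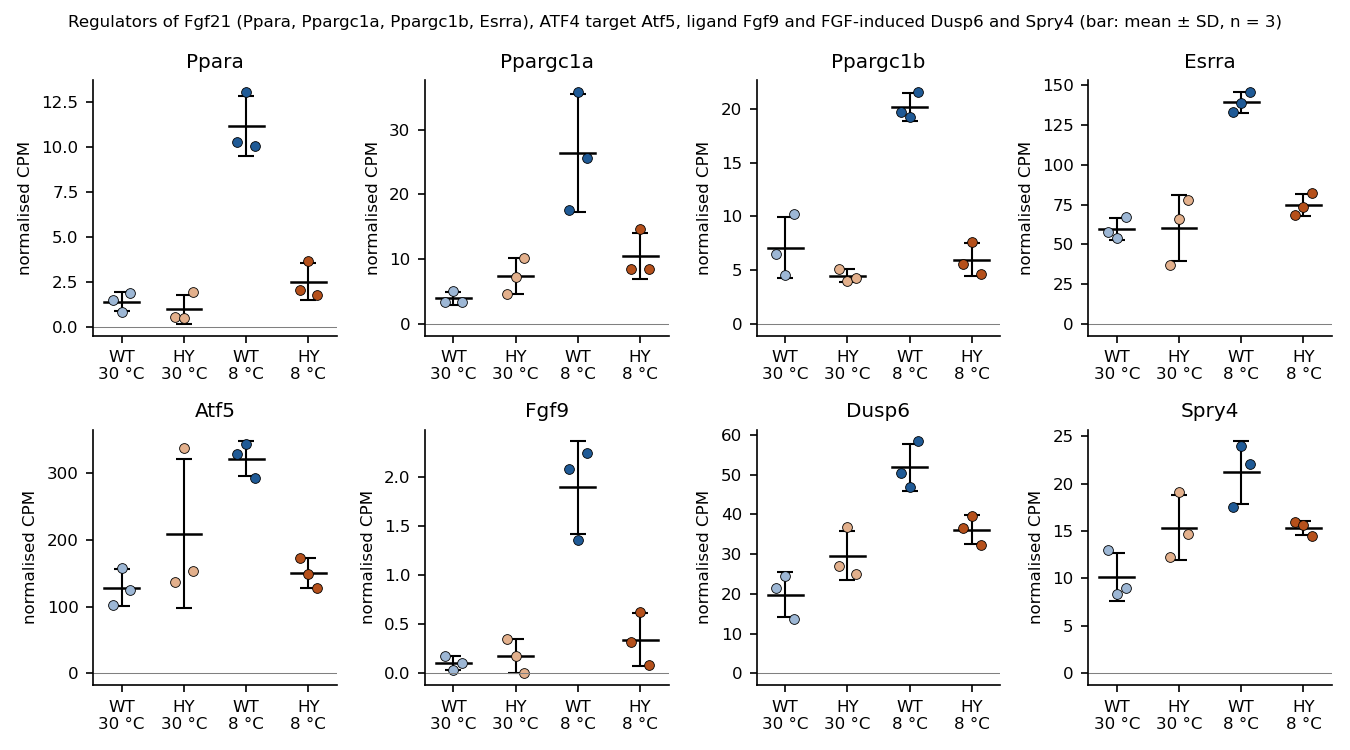
Normalised CPM of 8 genes of the Fgf21 pathway in the 12 libraries on linear axes, with the mean ± SD of 3 as black lines. In the WT group at 8°C Ppara was at 10.1 to 13.1 CPM and in HY at 8°C at 1.79 to 3.69 CPM, while Dusp6 was at 46.8 to 58.4 and 32.3 to 39.6 CPM.

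Of the 20 genes that carry the signal from the receptors to ERK, 0 were called by cold in WT, by cold in HY, between the genotypes at 8°C or for the genotype by temperature term. In these comparisons edgeR called 17.3%, 0.248%, 5.93% and 2.24% of all genes. At an unadjusted p under 0.05 edgeR gave 9, 3, 4 and 2 of the 20, and DESeq2 called 0 in each. The shares of all genes by those measures are not given, so these counts show no excess or lack. At 30°C, Rps6ka3, for a kinase downstream of ERK, was the 1 gene called, at 72, 76.5 and 74.5 CPM in HY and 48.9, 47 and 30.2 CPM in WT (0.82 ± 0.16, adjusted p = 0.0402, edgeR), where 0.562% of all genes were called higher. The call was lost without any 1 library other than WT replicate 3 at 30°C, HY replicate 1 at 30°C and HY replicate 3 at 8°C (adjusted p up to 0.083), and when only the 6 libraries at 30°C were fitted (adjusted p = 0.214).

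Of 9 genes known to respond to FGF21 in fat, Ucp1, Dio2, Cidea and Ppargc1a rose by cold in WT and Slc2a1, for the glucose transporter GLUT1, fell (-0.82 ± 0.25, adjusted p = 0.032, edgeR). Slc2a1 lost its call without WT replicate 2 at 30°C or any 1 of the 3 WT libraries at 8°C (adjusted p up to 0.138). In HY at 8°C, Ucp1, Cidea and Ppargc1a were lower than in WT, and 0 of 9 were higher. Ucp1, the uncoupling protein of heat-making adipocytes, was at 5048, 5351 and 6055 CPM in WT and at 611, 904 and 212 CPM in HY at 8°C. The calls of Ucp1 and Cidea at 8°C were lost without any 1 of the WT libraries or HY replicate 1 or 3 at 8°C (adjusted p up to 0.101 and 0.0801). Ucp1 was also the only gene of all pathway lists that edgeR called by cold in HY (8.87 ± 1.02, adjusted p = 0.0042), where 0.181% of all genes were called higher. With the replicate block 4 list genes were called, a count given here without the share of all genes under that block. Adipoq, for the hormone adiponectin, was at 1214 to 3790 CPM and not called. Over all the pathway lists without Fgf9, 12 of 86 genes rose and 5 fell by cold in WT, and 5 were higher and 7 lower in HY than in WT at 8°C. Of all genes tested, 10.3% rose and 6.93% fell by cold in WT, and 1.51% were higher and 4.42% lower in HY at 8°C. With Fgf9, the 13 called at 8°C became 6, 1 and 4 without WT replicate 1, 2 or 3 at 8°C and 3 and 1 without HY replicate 1 or 3 at 8°C. The shares of all genes in those fits are not given.

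The genes most like each member across the 12 libraries were found by Pearson's r of log2 CPM among 14587 genes averaging 10 counts or more. Since all the genes share the libraries and their scaling, r is a measure of likeness with no test. For Fgf21 the nearest were Acot2 (0.923), Aes (0.923), Spr (0.908), ORF61 (0.903) and Pfkl (0.894). Acot2 encodes a mitochondrial acyl-CoA thioesterase, whose level may be lowered because read pairs shared with its near-identical neighbour Acot1 were not counted, and Pfkl the liver form of phosphofructokinase. With library totals in place of TMM, r was 0.917, 0.846, 0.642, 0.490 and 0.880, so that Spr and ORF61 owed their place to the scaling. For Klb the nearest were Ppfibp1 (0.960), Slc23a2 (0.913) and Wwtr1 (0.893), the last encoding the coactivator TAZ. For Fgfr1 they were Ambra1 (0.940), Mks1 (0.935) and Trerf1 (0.935), for Fgfr2 Cdk19 (0.964), Lrrc16a (0.962) and Elovl7 (0.960), and for Fgfr3 Synj2 (0.949), 1700010I14Rik (0.945) and Zfp612 (0.939). Among the members themselves, r was -0.85 between Fgf21 and Fgfr1, 0.74 between Fgfr1 and Fgfr2, 0.64 between Fgfr2 and Fgfr3 and 0.06 between Fgf21 and Klb.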

How the data were processed

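RNA-seq of scWAT from 12 mice, each a separate replicate, was analysed. After trimming, the authors aligned paired 50-base reads to mm10 using STAR, and the deposited values are raw counts of read pairs per gene (GENCODE M25), for either strand and for the sum. Pairs aligned to several places (26.7% to 32.2%) were not counted, which lowers genes with near-identical copies. The 4 lines without a gene were excluded. They also held 25.1% to 28.8% unmapped, 1.99% to 3.2% outside genes and 0.93% to 1.1% ambiguous pairs.

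Sense-strand counts were filtered by filterByExpr (edgeR 4.0.16, R 4.3.3), scaled by TMM and fitted with edgeR's quasi-likelihood model with 1 mean per group and 8 residual degrees of freedom. Two-sided p-values were adjusted over 16540 genes by Benjamini and Hochberg's method. Calls needed an adjusted p under 0.05 and, except for the genotype by temperature term, a fold above 1.5 or below 0.67. Log2 CPM used a prior count of 2. RefSeq symbols matched 32589 IDs, and 2645 that shared a symbol were left out of ranks. The 5 genes, the lists and the markers were chosen with earlier results of these data known. Named from the lists were called genes (up to 6 per list and comparison) and up to 2 uncalled ones of high level, any others after their values were seen. Alternatives were DESeq2 1.42.0, library totals, mitochondrial DNA genes left out of library sizes, no filter, a minimum of 10 counts per library, fits of the compared libraries alone, both strands, the replicate number as a block and each library left out. Deviations from the group means correlated over 0.1 in all 3 same-numbered pairs of HY libraries between the temperatures (0.112, 0.199 and 0.303), and in no other comparison did all 3 pairs. The labels state no pairing, and pairs with different numbers reached 0.184 between other groups. The block set 1 effect per replicate number over all 12 libraries, so it is no fit of the HY pairs alone. On simulated counts for HY against WT at 8°C (16242 genes, 200 changed), 62% of 2-fold and 96% of 4-fold changes were called, with 8 false calls. The changed genes were drawn from well-counted genes only, so these rates do not cover genes as low as Fgf21 or Fgf9. One regulator of the lists is not reported here.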

Additional observations from a re-analysis of the deposited data

Results flagged for a closer look

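Of 87 tested genes of the Fgf21 pathway lists, 2 responded differently to cold in the genotypes by a test of the difference itself, a share near the 2.24% of all genes. The cold response of Ppargc1a in HY minus that in WT was -2.19 ± 0.48 on the log2 scale (adjusted p = 0.039, edgeR), with levels of 3.35 to 5.12 CPM at 30°C and 17.6 to 35.9 CPM at 8°C in WT, against 4.61 to 10.2 and 8.44 to 14.6 CPM in HY. For Atf5 the difference was -1.80 ± 0.42 (adjusted p = 0.0461), and 1 HY library at 30°C, replicate 2, was at 337 CPM against 137 and 153 in the other two. Both were lost with library totals in place of TMM. The Ppargc1a call was also lost without any 1 library other than HY replicate 1 at 30°C, WT replicate 1 at 8°C and HY replicate 2 at 8°C, with adjusted p up to 0.116. The Atf5 call was also lost without any 1 library other than those of HY at 30°C, with adjusted p up to 0.131, and with the counts of both strands.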

How the results depend on the processing

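Of the values that answer a comparison, 518 of 587 kept their direction and their side of the threshold (or, for counts, stayed within 1.5 times) under the alternatives. Of 1512 further values, 1253 did so, while 136 became weaker and 123 moved. Log2 fold changes near 0 changed sign. By cold in HY, Fgfr1 was at -0.04 and Fgfr2 at -0.13 with library totals, and leaving out 1 library gave -0.01 to 0.27 for Fgfr1, -0.28 to 0.40 for Fgfr2 and -0.44 to 0.28 for Fgfr3. Leaving out 1 library gave -2.29 to -0.26 for Fgf21 by cold in HY and -7.26 to -5.15 for its genotype by temperature term. It gave 0.51 to 0.69 for Fgfr1 between the genotypes at 8°C, 0.72 to 1.06 for its genotype by temperature term and -1.49 to -0.64 for Fgfr2 by cold in WT. Fgfr1 between the genotypes at 8°C passed the threshold with DESeq2 (0.61), no filter (0.63), only the libraries compared (0.64) and the replicate block (0.62), its genotype by temperature term with DESeq2 (0.88), and Fgfr2 by cold in WT with DESeq2 (-1.08), library totals (-1.48) and no filter (-1.13). The cause was not tested. With the replicate number as a block, Klb was called by cold in HY (0.90, adjusted p = 0.0499, edgeR) and between the genotypes at 30°C (0.85, adjusted p = 0.0378). Same-numbered mice deviated together between the HY groups, as given with the processing, but not over all 4 groups, where 11 of 18 same-numbered pairs had a correlation over 0.1 (-0.0695 to 0.346) and 7 of 12 libraries were nearest their own number.

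The number of pathway genes called by cold in WT, 18 with Fgf9 counted here and at 8°C, was 29 with library totals and 12 to 21 without 1 library. By cold in HY it was 1, against 4 with DESeq2, 2 with library totals, 3 with no filter, 4 with the replicate block, 0 with only the libraries compared, 0 where each library needed 10 counts and 1 to 8 without 1 library. Between the genotypes at 8°C it was 13, against 20 with only the libraries compared and 1 to 15 without 1 library. At 30°C it was 1, against 3 with DESeq2, 0 with library totals, 0 with only the libraries compared, 2 with the block and 0 to 1 without 1 library. For the genotype by temperature term it was 2, against 6 with DESeq2, 1 with library totals, 4 with no filter, 1 with both strands and 0 to 6 without 1 library. The share of all genes called under each alternative is not given, so these counts cannot be set against it. Fgf21 has no value where each library needed 10 counts, nor by cold in HY or between the genotypes at 30°C with only the libraries compared, since the filters removed it. Its counts were 1 to 6 in 8 of the 12 libraries.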
